A study of Homo sapiens with 12 samples.

Results

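The 7 genes that encode the JUN and FOS proteins were followed through leukemia cells with and without lycorine. They are JUN, JUNB, JUND, FOS, FOSB, FOSL1 and FOSL2, chosen by their names as 1 gene family out of 19447 gene symbols measured. The family was put forward with the difference of JUN between K562+L and K562 already known, so it was selected on measured values of that contrast. All values of that contrast for the members, and every value of JUN, are therefore descriptions with no test. The other 6 members were tested in the other contrasts.

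The RNA-seq libraries formed 4 groups of 3. K562 is an established human cell line from chronic myeloid leukemia and has the BCR-ABL fusion kinase, the target of imatinib. In the K562+L group these cells were given 6 µM lycorine, an alkaloid of the Amaryllidaceae. K562/IM is the same line after stepwise selection in imatinib and is kept in 5 µM of it. K562/IM+L, by its label, received lycorine as well. By the labels, all groups are K562 cells. A single resistant line was made, so a difference between K562/IM and K562 is a difference between these lines. Line and imatinib in the medium cannot be told apart in it. Whether imatinib was removed before sequencing is not given in the sources used here. The concentrations are those of the methods text, not of the sample labels. How long the cells stood in lycorine before sequencing is not given in the sources used here.

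AP-1 is a transcription factor made of pairs of basic leucine zipper (bZIP) proteins. JUN proteins pair with each other and with FOS proteins, whereas FOS proteins bind DNA only when paired with a JUN protein or a related partner. The pair reads the TRE element or the related CRE element. FOS, FOSB, JUN and JUNB are immediate-early genes, which rise quickly and briefly after growth factors or stress, and JNK kinases phosphorylate JUN to raise its activity. Lycorine is known as an inhibitor of protein synthesis.

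The total counts per library ran from 75093844 to 107344598, and 13900 to 14816 symbols were detected in a library. The erythroid markers fixed for K562 cells, such as GATA1 and the fetal and embryonic globin genes, were detected in every group, 9 of 9. Their summed level was 6110 to 8482 CPM in K562, 4136 to 4748 CPM in K562+L, 2825 to 3076 CPM in K562/IM and 32272 to 45382 CPM in the labelled K562/IM+L libraries. Single markers could differ from the sum, as HBE1 was at 544 CPM in K562/IM against 97.6 CPM in K562. CPM are counts scaled to a common library size, with TMM factors that correct for library make-up. Of 7 markers of other cell types, MS4A1 (B cells) was at 0 counts in every group, and EPCAM (epithelium) was at 128 CPM in K562. COL1A2 (fibroblasts) reached 17.2 CPM in K562/IM against 0.0164 CPM in K562 and 0.0294 CPM in the labelled K562/IM+L libraries. PECAM1 (endothelium) stood at 1.18 CPM in K562/IM, 0.0950 CPM in K562 and 0.0140 CPM in the labelled libraries. The 7 summed to 124 to 133 CPM in K562, 106.9 to 119 CPM in K562+L, 64.9 to 69.1 CPM in K562/IM and 85.3 to 105 CPM in the labelled K562/IM+L libraries. The drug exporter gene ABCB1 stood at 21.9 to 25.9 CPM in K562/IM and at 0.488 to 1.06 CPM in the labelled K562/IM+L libraries, under the 1.68 to 1.86 CPM of K562. CD44 had 0 counts in those libraries and 152 CPM in K562/IM. Because of this, this group is named by its label throughout, and each direction drawn from it rests on that label. These RNA levels do not decide whether the label is right. The part of these marker shifts in the values below was not tested.

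The JUN genes are compact. In GENCODE 29 (GRCh38) JUN covers chr1:58780788-58784327 on the minus strand, JUNB chr19:12791496-12793315 on the plus strand and JUND chr19:18279760-18281622 on the minus strand, each as 1 exon. The FOS genes hold 4 exons each in their longest transcript. FOS lies at chr14:75278774-75282230 and FOSB at chr19:45467995-45475179, both on the plus strand. FOSL1 lies at chr11:65892049-65900573 on the minus strand and FOSL2 at chr2:28392448-28417312 on the plus strand. JUNB lies within HOOK2 and FOSB within ERCC1, both on the opposite strand. Whether strand was used in counting is not given in the sources used here, so reads of these pairs may be mixed.

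The 250 bases before the RefSeq start (GRCh38.p14) were read for the 6 members with an entry, all but FOSL1, in search of the elements through which AP-1 and the related CREB/ATF proteins act. Stretches of 4 of them are shown 5′ to 3′ with the matched letters in capitals. JUN is shown because its TGACATCA is the element known to respond to JUN:ATF2 pairs, and only 30 bases around it are printed. JUND is the most abundant member per length and the carrier of a full CRE. FOS and FOSB are shown because their levels moved together between libraries. GENCODE 29 starts some of these genes further upstream than RefSeq. The whole windows of JUN and FOSL2, the last 54 bases for FOS and the last base for FOSB lie inside the GENCODE gene. For this reason the printed FOS and FOSB stretches end at that start. The JUN and FOSL2 matches given next, and the TATAAA of FOS, precede the RefSeq start only.
JUN, chr1:58784096-58784125, minus strand: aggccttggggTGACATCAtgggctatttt
JUND, chr19:18281623-18281872, minus strand: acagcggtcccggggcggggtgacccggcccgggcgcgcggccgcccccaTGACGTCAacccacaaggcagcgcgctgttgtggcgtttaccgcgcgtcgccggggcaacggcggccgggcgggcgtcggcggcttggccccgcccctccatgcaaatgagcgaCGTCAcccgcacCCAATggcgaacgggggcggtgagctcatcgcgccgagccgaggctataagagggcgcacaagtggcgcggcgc
FOS, chr14:75278578-75278773, plus strand: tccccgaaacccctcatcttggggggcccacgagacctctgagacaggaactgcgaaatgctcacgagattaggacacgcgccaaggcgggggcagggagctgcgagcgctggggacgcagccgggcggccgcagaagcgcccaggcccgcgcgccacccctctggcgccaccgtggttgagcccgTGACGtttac
FOSB, chr19:45467746-45467994, plus strand: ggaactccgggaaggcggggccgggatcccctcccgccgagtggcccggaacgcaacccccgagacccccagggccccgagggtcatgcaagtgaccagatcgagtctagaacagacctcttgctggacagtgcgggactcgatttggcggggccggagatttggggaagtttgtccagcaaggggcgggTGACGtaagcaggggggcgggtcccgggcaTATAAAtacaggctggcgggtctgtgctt

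Motifs were searched as exact letters on both strands over the whole 250 bases. The half-site TGACG, which is also held inside the CRE, was in 6 of 6 members, against 21.2% of all 35116 promoters. In FOS it lay at -64 to -60 and in FOSB at -60 to -56, counted back from the RefSeq start. The CRE TGACGTCA was found at -200 to -193 of JUND alone among the 6 and in 1.65% of all promoters. TGACATCA was found at -67 to -60 of JUN, and in 2.37% of all promoters. TATAAA was in 3 members, JUNB (-31 to -26), FOS (-33 to -28) and FOSB (-30 to -25), against 10.7% of all promoters. CCAAT was in the 3 JUN genes, against 32.0%. The consensus TRE TGACTCA and the CArG box, the element of serum response factor, were in 0 of 6, against 4.203% and 1.16%. Elements further upstream than 250 bases lie outside these windows, so this does not show that a gene, such as FOS, lacks them. The member windows were 62% to 74.8% G+C, with a median of 58% over all windows, and these matches are letters only.

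JUN encodes c-Jun, the strongest activator among the JUN proteins. Its transcript stood at 31.3, 30.4 and 26.8 CPM in replicates 1 to 3 of K562, and at 319, 311 and 282 CPM in K562+L. In K562/IM it was at 115, 124 and 95.6 CPM, and in the labelled K562/IM+L libraries at 198, 154 and 148 CPM. The 4 groups did not overlap, with K562 lowest, then K562/IM, then the labelled K562/IM+L libraries, and K562+L highest. K562+L stood 10.3-fold above K562, a log2 fold change of 3.36 with a standard error (SE) of 0.10, larger in size than that of 99.7% of the genes tested in that contrast. The log2 fold change was 1.92 (SE 0.12) for K562/IM against K562. For the labelled K562/IM+L libraries it was 0.61 (SE 0.14) against K562/IM and 2.48 (SE 0.14) against K562.

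JUNB encodes a JUN protein that activates more weakly and can restrain c-Jun. Its values were 49.2, 60.4 and 53.9 CPM in K562 and 38.7, 31.5 and 26.8 CPM in K562+L, where every library was below every K562 library. K562/IM held 103, 105 and 98.2 CPM, all above K562. The labelled K562/IM+L libraries held 129.5, 101 and 71.0 CPM, above K562 and on both sides of K562/IM. JUN and JUNB thus lay in opposite directions in K562+L, at -0.76 (SE 0.15) on the log2 scale for JUNB, and in the same direction in K562/IM. JUNB rose by 0.91 on the log2 scale in K562/IM against K562 (SE 0.091, edgeR adjusted p = 1.3e-04). Against K562 it was also higher in the labelled K562/IM+L libraries (0.87, SE 0.21, edgeR adjusted p = 0.0116). Against K562/IM the difference was within its error (-0.0026, SE 0.19, edgeR adjusted p = 0.991). HOOK2, which covers JUNB on the other strand, stood at 30.03 ± 4.65 CPM (SD, n = 3) in K562, 21.9 ± 0.912 CPM in K562+L, 28.5 ± 0.195 CPM in K562/IM and 31.4 ± 4.78 CPM in the labelled K562/IM+L libraries.

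JUND encodes the JUN protein that is present in resting cells and changes least on stimulation. K562 held 113, 139 and 138 CPM and K562/IM 123, 130.4 and 96.2 CPM, which overlapped (log2 fold change -0.16, SE 0.13, edgeR adjusted p = 0.340). K562+L held 175, 188 and 149.6 CPM, above every K562 library (log2 fold change 0.39, SE 0.12). The highest levels were the 259.7, 265 and 189 CPM of the labelled K562/IM+L libraries. These were above K562/IM by 1.05 on the log2 scale (SE 0.16, edgeR adjusted p = 7.6e-04) and above K562 by 0.85 (SE 0.16, edgeR adjusted p = 0.00329).

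FOS encodes c-Fos, the classical partner of c-Jun. It was at 32.2, 22.6 and 26.1 CPM in K562, 39.5, 26.7 and 50.7 CPM in K562+L, 23.6, 30.1 and 20.1 CPM in K562/IM and 59.0, 20.6 and 18.5 CPM in the labelled K562/IM+L libraries. Every neighbouring pair in the order of group means overlapped. In that order K562/IM came first, then K562, the labelled K562/IM+L libraries, and K562+L. FOSB encodes a close relative of c-Fos and had the same order, with 16.4, 7.14 and 8.24 CPM in K562 and 15.2, 12.9 and 20.1 CPM in K562+L. K562/IM held 9.90, 8.53 and 8.87 CPM of it and the labelled K562/IM+L libraries 25.4, 7.41 and 8.97 CPM. Neither gene passed the test in a contrast where it was tested. In K562/IM against K562 the log2 fold changes were -0.13 (SE 0.18, edgeR adjusted p = 0.558) for FOS and -0.22 (SE 0.29, edgeR adjusted p = 0.543) for FOSB. For the labelled K562/IM+L libraries against K562/IM they were 0.43 (SE 0.43, edgeR adjusted p = 0.401) and 0.64 (SE 0.43, edgeR adjusted p = 0.227). Against K562 they were 0.26 (SE 0.44, edgeR adjusted p = 0.636) and 0.37 (SE 0.52, edgeR adjusted p = 0.574). In K562+L against K562 they were 0.53 (SE 0.23) and 0.60 (SE 0.31).

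Single libraries set much of this spread. Replicate 1 of the labelled K562/IM+L libraries was the highest of all 12 for both genes. Without it, the log2 fold changes against K562/IM were -0.31 for FOS (edgeR adjusted p = 0.176) and -0.12 for FOSB (edgeR adjusted p = 0.502), so that both turned in direction. Against K562 they turned to -0.49 (edgeR adjusted p = 0.0557) and -0.40 (edgeR adjusted p = 0.412). Without K562 replicate 1, FOSB in K562/IM against K562 turned to 0.21 (edgeR adjusted p = 0.184). ERCC1, which covers FOSB on the other strand, was at 31.3 ± 4.32 CPM (SD, n = 3) in K562, 37.0 ± 2.54 CPM in K562+L, 62.2 ± 0.397 CPM in K562/IM and 56.8 ± 3.49 CPM in the labelled K562/IM+L libraries, another order than that of FOSB.

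FOSL1 encodes Fra-1, a FOS protein without the strong activation domain of c-Fos, linked to MAPK signaling in solid tumors. It stood at 27.0, 31.6 and 33.3 CPM in K562 and 25.6, 26.9 and 27.5 CPM in K562+L, which overlapped, with a log2 fold change of -0.20 (SE 0.10). In K562/IM every library was higher, at 69.9, 68.2 and 65.0 CPM. The labelled K562/IM+L libraries were the lowest of all, at 8.77, 8.90 and 7.60 CPM. FOSL1 rose by 1.14 on the log2 scale in K562/IM against K562 (SE 0.095, edgeR adjusted p = 5.0e-05). It was 7.89-fold lower in the labelled K562/IM+L libraries than in K562/IM (log2 fold change -2.98, SE 0.088, edgeR adjusted p = 3.8e-07). Against K562 it was 3.69-fold lower there (log2 fold change -1.88, SE 0.13, edgeR adjusted p = 3.4e-05).

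FOSL2, which encodes Fra-2, was the rarest member. K562 held 1.14, 1.14 and 1.03 CPM and K562+L 4.50, 4.06 and 4.03 CPM, 3.79-fold higher with a log2 fold change of 1.92 (SE 0.17). K562/IM held 3.40, 2.997 and 2.91 CPM and the labelled K562/IM+L libraries 1.75, 1.21 and 1.31 CPM. The 4 groups did not overlap, and K562+L was the highest for FOSL2 as for JUN. FOSL2 rose by 1.49 on the log2 scale in K562/IM against K562 (SE 0.18, edgeR adjusted p = 3.4e-04). It was lower in the labelled K562/IM+L libraries than in K562/IM (-1.10, SE 0.21, edgeR adjusted p = 0.00223). Against K562 its log2 fold change was 0.35 (SE 0.26, edgeR adjusted p = 0.284).

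**Figure D1:**
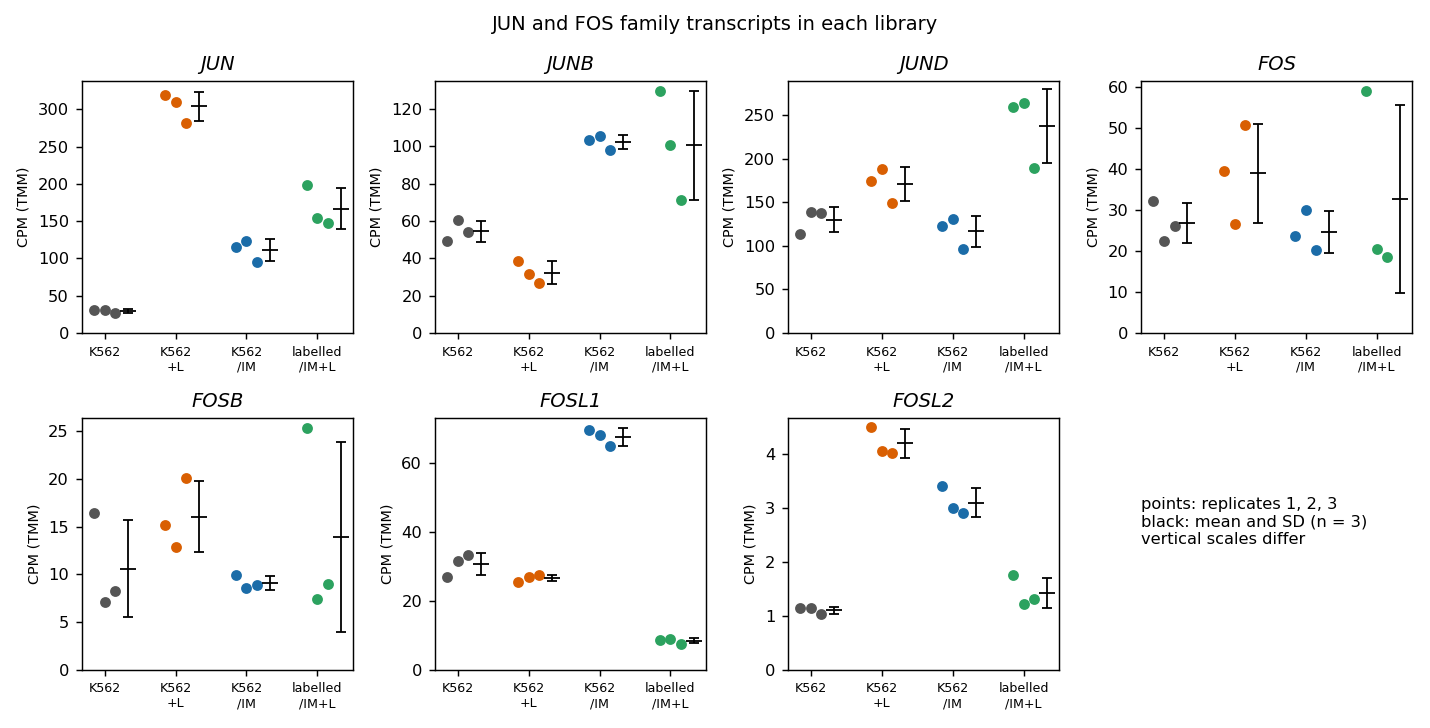
Level of each member in the 12 libraries, in TMM-scaled CPM on vertical axes that start at 0 and differ between genes. Points are replicates 1 to 3 of a group, and black bars give the mean and SD (n = 3). JUN and FOSL2 are highest in K562+L, FOSL1 is highest in K562/IM, and FOS and FOSB have 1 high library among those labelled K562/IM+L.

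Counted over the family, K562/IM differed from K562 by a rise of JUNB, FOSL1 and FOSL2, 3 of the 6 members tested, and by no fall. All 7 members had passed the low-count filter in each contrast. Passing means an edgeR adjusted p under 0.05, which 57.1% of the 13406 genes tested reached in this contrast, 30.1% higher and 27.1% lower. The median log2 fold change of the 7 members, JUN included, was 0.91, beside 0.042 for all genes tested. The 6 members other than JUN ran from -0.22 to 1.49. This median and the others of the 7 members below hold JUN, on whose values the family was chosen, and are descriptions. The labelled K562/IM+L libraries differed from K562/IM in 3 of 6, with JUND higher and FOSL1 and FOSL2 lower. In that contrast 66.8% of 13727 genes passed, 33.2% higher and 33.6% lower, and the medians were 0.43 and -0.0069. Against K562 they differed in 3 of 6, with JUNB and JUND higher and FOSL1 lower, beside 56.0% of 13307 genes, 28.2% higher and 27.8% lower. The medians there were 0.37 and 0.020. In K562+L against K562, where the family was chosen, JUN, JUND and FOSL2 had an adjusted p under 0.05 upward and JUNB downward, 4 of 7, a count given as a description from which nothing is read. There 37.3% of 12927 genes passed, 18.2% higher and 19.0% lower, with medians of 0.53 and -1.2e-04. In the 3 contrasts with a test, 3 of 6 members passed each time, near or below the share of all genes. With 6 genes, no difference from that share is read. The contrasts share libraries, each group standing in more than 1 of them, so they are not independent. Nothing in the labels says that replicates are separate cultures, so the p-values measure the spread between these libraries, which may be technical.

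**Figure D2:**
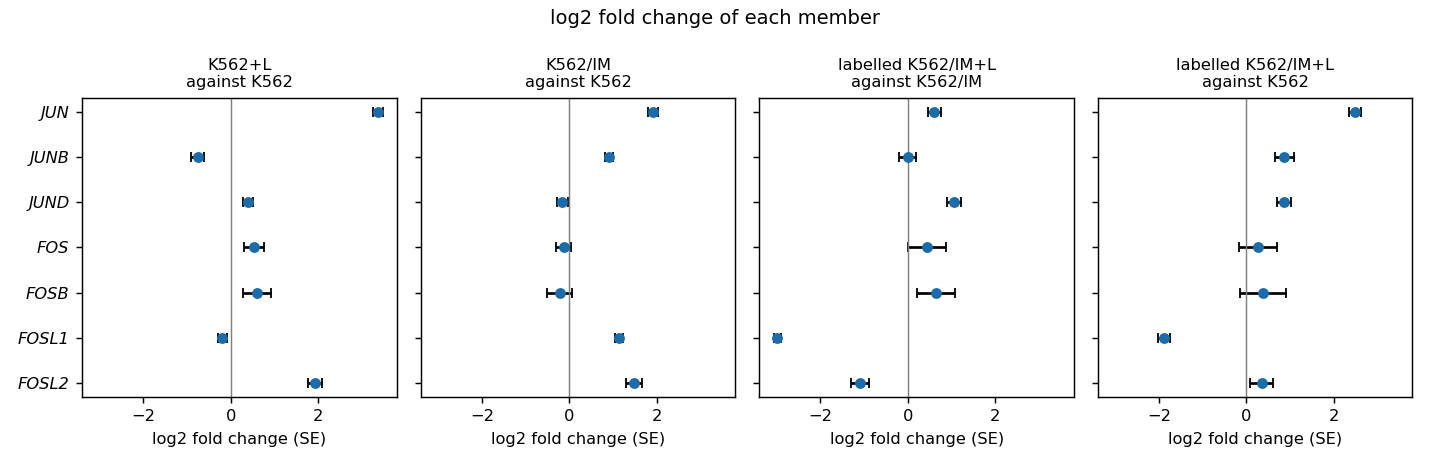
Log2 fold change of each member (horizontal axis) in the 4 contrasts, with bars of 1 SE from edgeR. JUN lies at 3.36 in K562+L against K562, and FOSL1 lies at -2.98 in the labelled K562/IM+L libraries against K562/IM. The first panel, and JUN throughout, carry no test.

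The contrasts of the groups labelled lycorine with their controls were set against each other in a fit of all 12 libraries. The difference is the log2 fold change in the labelled K562/IM pair minus that in the K562 pair, with no test. Reading the labelled pair as an effect of lycorine on K562/IM rests on the label alone. The difference was -2.78 (SE 0.18) for JUN, which was higher in the group labelled lycorine in both pairs, but less so in the labelled K562/IM pair. FOSL2 moved in opposite directions, with a difference of -3.04 (SE 0.26). FOSL1 had -2.80 (SE 0.13), with -2.98 in the labelled pair and -0.20 in the K562 pair. For JUNB it was 0.73 (SE 0.27) and for JUND 0.64 (SE 0.22). FOS had -0.12 (SE 0.55) and FOSB 0.018 (SE 0.60), both well within their errors.

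Levels were compared between members only per kb of exon, as a share of the summed CPM per kb of the 7 genes. The exon length joined all transcripts of a gene, and the place of a FOS gene among the members depends on that choice. JUND was first in each group by its mean share. In K562 it held 51.7% ± 2.38 (SD, n = 3), followed by JUNB with 22.2% ± 1.08, FOSL1 with 12.04% ± 0.625, then FOS with 6.25% ± 1.59 and JUN with 6.22% ± 0.842, which overlapped. FOSB held 1.46% ± 0.811 and FOSL2 0.115% ± 0.0125. In K562+L the shares of JUND, 40.7% ± 2.66, and JUN, 38.2% ± 0.254, overlapped, and JUNB held 7.85% ± 1.07. K562/IM was the most even, with JUND at 31.8% ± 2.05 overlapping JUNB at 28.8% ± 1.72, and FOSL1 at 18.4% ± 1.23 ahead of JUN at 16.03% ± 0.611. In the labelled K562/IM+L libraries JUND held 51.9% ± 4.34, JUNB 22.0% ± 2.05 and JUN 19.3% ± 2.23, whereas FOSL1 held 1.84% ± 0.249.

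The FOS genes together made up 19.9% ± 2.15 of the family's RNA per kb in K562 and 13.3% ± 2.84 in K562+L, with no overlap. Their share was 23.3% ± 0.923 in K562/IM and 6.78% ± 2.34 in the labelled K562/IM+L libraries. FOSL1 was the main FOS transcript in K562/IM, at 78.8% of the FOS genes per kb, against 61.2% in K562, 48.4% in K562+L and 29.7% in the labelled K562/IM+L libraries. The summed level of the JUN genes was 108 ± 10.2 CPM per kb in K562, 195 ± 17.8 in K562+L, 150 ± 15.8 in K562/IM and 230 ± 43.1 in the labelled K562/IM+L libraries. That of the FOS genes was 26.6 ± 1.26, 29.7 ± 4.55, 45.5 ± 2.54 and 17.3 ± 9.04 CPM per kb in the same order.

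**Figure D3:**
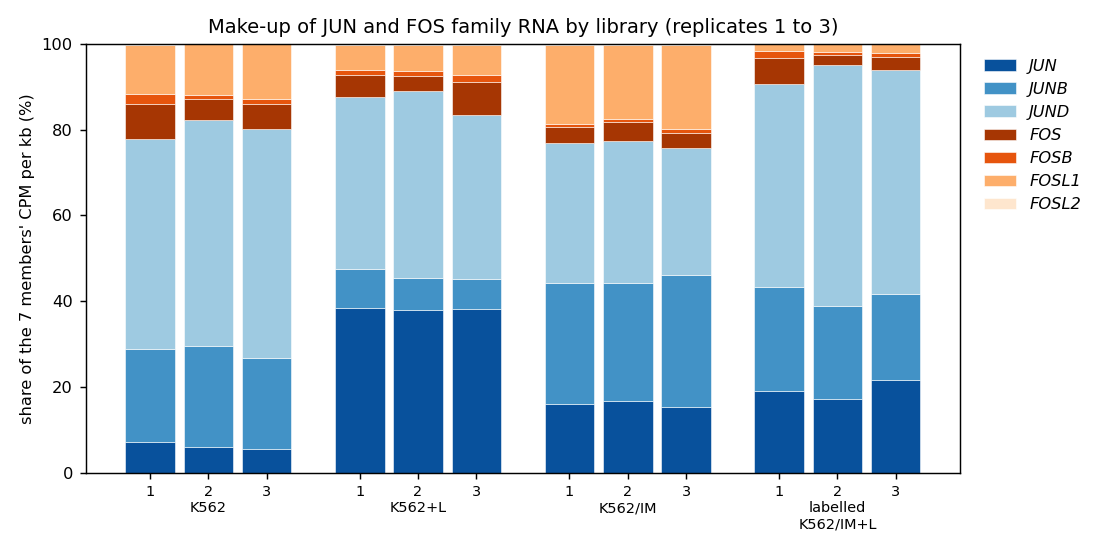
Share of each member in the summed CPM per kb of exon of the 7 genes (vertical axis, %) in each of the 12 libraries, with JUN genes in blue and FOS genes in orange. The JUN band grows from about 6.22% in K562 to 38.2% in K562+L, and the FOSL1 band is widest in K562/IM at 18.4%.

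FOS and FOSB varied together from library to library. On log2(CPM + 1), Pearson's r was 0.90 over the 12 libraries and 0.87 once each group's mean had been taken off. The ratio of FOS to FOSB CPM ran from 1.96 in K562 replicate 1 to 3.53 in K562/IM replicate 2. Among the other pairs of members, JUND and FOSL1 had r = -0.84 over the 12 libraries and 0.71 within groups, so the negative sign came from the group means. JUN and FOSL2 had 0.73 over the 12 libraries and 0.77 within groups. These are descriptions, since libraries of a group share their line and treatment. FOS and FOSB share the TGACG and TATAAA positions given above within a few bases. Each position alone is not particular to this pair. FOSL2 has TGACG at -66 to -62, and JUNB has TATAAA at -31 to -26. The relation of these letters to the levels was not tested.

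**Figure D4:**
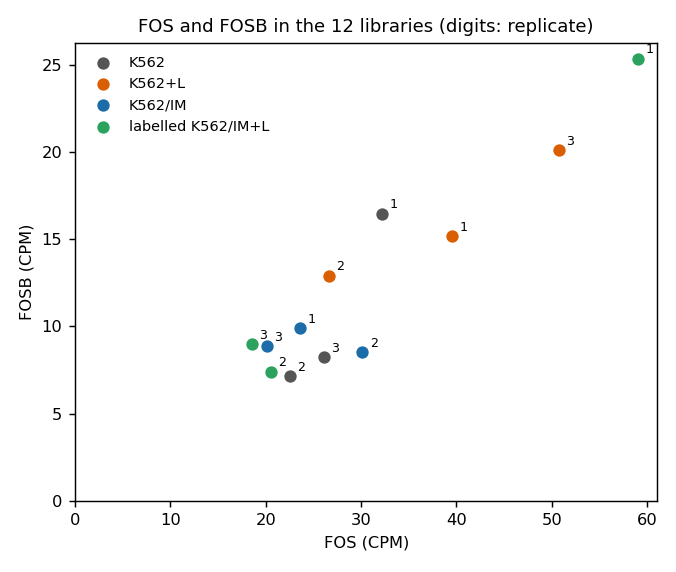
FOSB against FOS in CPM, 1 point for each of the 12 libraries, with digits giving the replicate. Replicate 1 of the labelled K562/IM+L libraries lies at the top right with 59.0 and 25.4 CPM, apart from its 2 fellow replicates at the lower left.

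Among all genes, those closest in pattern to each member were ranked by Pearson's r on log2(CPM + 1) over the 12 libraries. For JUN these were FILIP1L (0.97), the histone demethylase gene KDM6B (0.96), C11orf95 (0.96), DENND1A (0.95) and STIM1 (0.95), the calcium sensor of the endoplasmic reticulum. Ranked by Spearman's rho, 0 of these 5 were among the 5 nearest. Their ranges were narrower than that of JUN, and FILIP1L went from 4.45 CPM in K562 to 17.0 CPM in K562+L. JUNB was closest to the actin-severing gene GSN (0.98), RGS2 (0.97) and CC2D1A (0.97), and JUND to FAM89B (0.97), TPGS1 (0.97) and INPP5K (0.96). FOS had FOSB as its nearest gene (0.90), ahead of STAB2 (0.79) and FAM106A (0.78), which were under 1 CPM in every group. FOSB had FOS first (0.90), then COX18 (0.82) and FAM106A (0.81). FOSL1 was closest to PHACTR1, the cytokine receptor gene IL4R and SPRY4, a feedback inhibitor of MAPK signaling, each at 0.99. SPRY4 stood at 13.4 CPM in K562, 7.93 CPM in K562+L, 50.6 CPM in K562/IM and 0.642 CPM in the labelled K562/IM+L libraries. FOSL2 was closest to TM4SF19 (0.96), ZNF26 (0.96) and AP5B1 (0.95).

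The nearest gene on each side of a member in the table was read beside it in each contrast, and some moved with their member while others did not. Beside JUN, FGGY was higher in K562/IM than in K562 (1.74, SE 0.36, edgeR adjusted p = 0.00413) and in the labelled K562/IM+L libraries than in K562 (1.57, SE 0.38, edgeR adjusted p = 0.0102), where JUN was higher too. In K562+L against K562 it had -0.29 (SE 0.40, edgeR adjusted p = 0.600). MYSM1, on the other side of JUN, passed in 1 contrast, lower in the labelled K562/IM+L libraries than in K562/IM (-0.91, SE 0.21, edgeR adjusted p = 0.00582), where JUN was higher.

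PRDX2, 3.51 kb from JUNB, lay in the same direction as JUNB in K562+L against K562 (-0.77, SE 0.15, edgeR adjusted p = 0.00649) and in the labelled K562/IM+L libraries against K562 (0.51, SE 0.18, edgeR adjusted p = 0.0432). It lay opposite to JUNB in K562/IM against K562 (-0.81, SE 0.13, edgeR adjusted p = 0.00102). LSM4 beside JUND did not pass in a contrast, with edgeR adjusted p from 0.224 to 0.621. IQCN, on the other side of JUND, stood at 0.202 CPM in K562/IM and 0 CPM in K562 (edgeR adjusted p = 0.00354), admitted by the filter only through K562/IM. It did not pass in the labelled K562/IM+L libraries against K562/IM (edgeR adjusted p = 0.147) and was too low to be tested in the other contrasts. CCDC85B, 0.414 kb from FOSL1, was lower in all 4 contrasts, also in K562/IM against K562 (-0.62, SE 0.17, edgeR adjusted p = 0.0164), where FOSL1 was higher. C11orf68, on the other side, was higher in the labelled K562/IM+L libraries than in K562/IM (0.82, SE 0.12, edgeR adjusted p = 7.1e-04), where FOSL1 was lower. BABAM2 beside FOSL2 was lower in that contrast (-0.49, SE 0.099, edgeR adjusted p = 0.00335), as FOSL2 was, and had 0.14 (SE 0.099, edgeR adjusted p = 0.254) in K562/IM against K562. RTN2 beside FOSB and JDP2 beside FOS passed in all 4 contrasts, and CD3EAP and TMED10 on the other sides were lower in 3 each.

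Partners, kinases, upstream factors, ubiquitin ligases and targets of AP-1 were taken from 5 lists. They are described by counts beside the share of all genes that passed, with no test of a list against other genes. The AP-1 targets hold 29 genes, of which 17 to 20 were tested in a contrast. A gene at 0 counts in 1 group passed the low-count filter only through the other group, which fixed its direction. In K562+L against K562, 13 of the 63 list genes tested rose and 9 fell, 34.9% in all beside 37.3% of all genes (18.2% higher, 19.0% lower). Of 13 other bZIP partners 3 rose and 5 fell. The stress factor ATF3 rose from 24.3 to 59.5 CPM (log2 fold change 1.29, SE 0.097, edgeR adjusted p = 1.7e-04), and CREB5 rose from 0 counts to 85, at least 25.2-fold with 3 counts over the group as the floor. JDP2, a repressor that pairs with JUN, fell from 3.47 to 0.325 CPM (edgeR adjusted p = 2.2e-04), and MAF fell by 1.80 on the log2 scale. Of 15 genes of the JNK module 3 rose, among them the scaffold genes MAPK8IP1 (5.37 to 15.4 CPM) and MAPK8IP2 (1.65 to 5.62 CPM), and 1 fell, MAPK9, which encodes JNK2 (-0.43, SE 0.092). Of 11 factors at the JUN and FOS promoters 2 rose, MEF2A (29.8 to 52.3 CPM) and MRTFA (17.9 to 26.7 CPM). Of 7 genes of JUN and FOS turnover 1 rose, the ubiquitin ligase gene ITCH (87.5 to 121 CPM). Of 17 AP-1 targets 4 rose and 3 fell. DUSP1, a phosphatase that turns off JNK and p38, rose from 30.9 to 102 CPM, while CCND1 (cyclin D1) fell from 20.4 to 4.26 CPM and PLAU (urokinase) from 5.54 to 2.86 CPM.

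In K562/IM against K562 28 of 64 list genes rose and 13 fell, 64.1% in all beside 57.1% of all genes (30.1% higher, 27.1% lower). The AP-1 targets gave 11 that rose and 2 that fell of 19. CD44 went from 0 counts to 152 CPM, at least 12797-fold, and FASLG from 0 counts to 0.576 CPM, at least 48.7-fold. Both are among the 11 that rose, though the filter admitted them only through K562/IM. GSTP1 fell from 444 to 285 CPM and AREG from 6.08 to 4.44 CPM. The factors at the promoters gave 8 that rose and 1 that fell of 11. ELK3, a partner of serum response factor, rose from 10.3 to 26.3 CPM and MEF2D from 22.7 to 49.8 CPM, whereas MEF2C fell from 55.7 to 19.7 CPM. In the JNK module 7 rose and 2 fell of 15, with the kinase genes MAP3K12 (2.74 to 6.96 CPM) and MAP3K5 (17.2 to 33.8 CPM) higher and MAP2K7 (82.1 to 53.6 CPM) lower. Among 12 bZIP partners 2 rose and 5 fell, MAF from 4.01 to 0.0280 CPM and BATF2 from 6.13 to 0.624 CPM. In the turnover list 0 rose and 3 fell of 7, among them RBX1 (57.3 to 32.3 CPM).

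In the labelled K562/IM+L libraries against K562/IM 20 of 65 list genes were higher and 29 lower, 75.4% in all beside 66.8% of all genes (33.2% higher, 33.6% lower). AP-1 targets were 3 higher and 11 lower of 20, and the 11 again hold CD44 and FASLG, admitted only through K562/IM. DUSP1 was higher, at 115 against 39.9 CPM, MMP9 was at 0.495 against 0.0559 CPM, and CD44 was at 0 counts, at least 12630-fold lower. Of the 11 factors at the promoters 1 was higher and 7 lower, ELK3 at 5.06 against 26.3 CPM. The JNK module had 7 higher and 5 lower of 15, with MAPK8IP1 at 36.8 against 4.62 CPM and MAP3K5 at 12.5 against 33.8 CPM. The bZIP partners had 6 higher and 5 lower of 12, BATF2 at 7.95 against 0.624 CPM and BATF3 at 0.260 against 3.06 CPM. Of the turnover genes 3 were higher and 1 lower of 7, DDB1 at 838 against 505 CPM. Against K562, these libraries had 15 list genes higher and 17 lower of 62, 51.6% in all beside 56.0% of all genes (28.2% higher, 27.8% lower). MAPK8IP1, MAP3K12 and DUSP1 were higher, the last at 115 against 30.9 CPM, and CCND1 was lower, at 2.18 against 20.4 CPM. By list, AP-1 targets were 4 higher and 7 lower of 18, promoter factors 2 and 2 of 11, the JNK module 5 and 3 of 14, bZIP partners 2 and 4 of 12, and turnover genes 2 and 1 of 7.

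**Figure D5:**
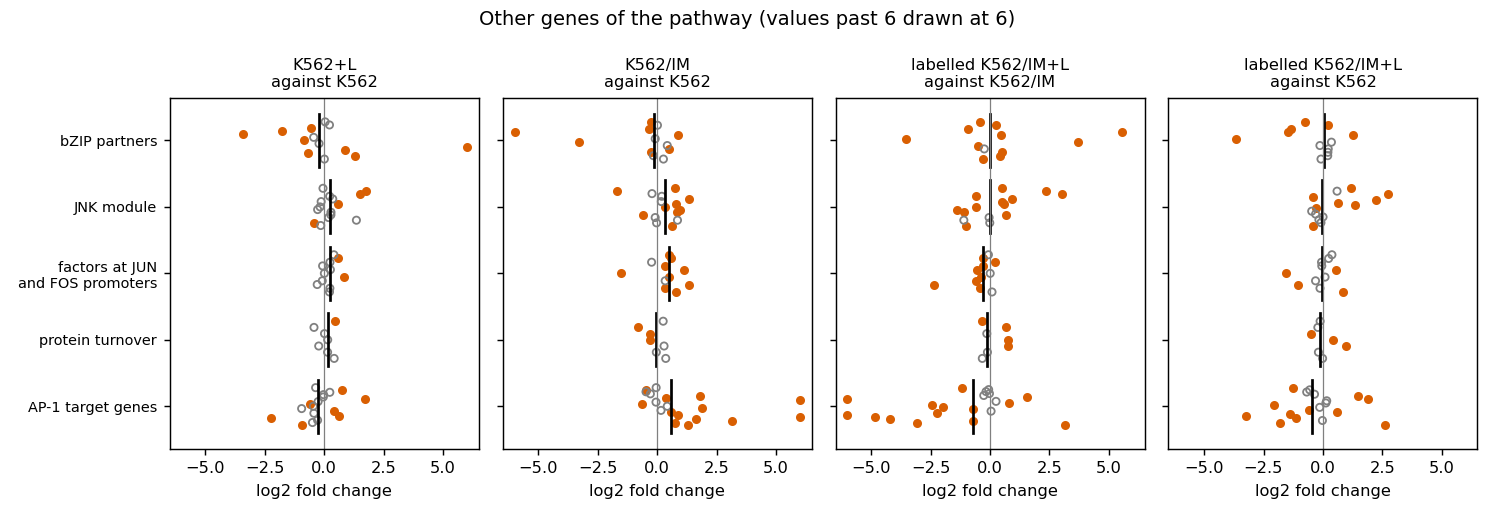
Log2 fold change of each tested gene of the 5 lists (horizontal axis, values past 6 drawn at 6) in the 4 contrasts. Filled points passed an edgeR adjusted p under 0.05, open points did not, and black lines mark each list's median. In K562/IM against K562 the AP-1 targets have a median of 0.59, beside 0.042 for all genes tested. CD44 and FASLG, at 0 counts in K562, are included.

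The median log2 fold change of each list was taken over its tested genes, including those admitted by the filter through 1 group only. For the AP-1 targets it was -0.28 in K562+L against K562, 0.59 in K562/IM against K562, -0.72 in the labelled K562/IM+L libraries against K562/IM, and -0.46 for those libraries against K562. For the promoter factors it was 0.24, 0.50, -0.32 and -0.049 in the same order. Those of the JNK module were 0.23, 0.33, -0.012 and -0.039, those of the bZIP partners -0.22, -0.12, 0.0062 and 0.060, and those of the turnover genes 0.14, -0.036, -0.11 and -0.12.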

How the data were processed

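Messenger RNA (poly(A)-enriched) was sequenced in 12 libraries, 3 in each of 4 groups taken from the sample labels. The authors deposited whole-number counts per gene symbol, not normalized. The submitters' processing notes name FastQC, STAR, StringTie, DESeq2 and hg38, without versions or roles. The annotation, the counting settings and the use of strand are not given in the sources used here. Among values of 1 to 25, 67.9% could be divided by 4 with a remainder of 0 or 1, as could 52% of the whole numbers in that range, so that counting noise may exceed what the totals give.

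Using R 4.3.3 and edgeR 4.0.16, the 6 libraries of each contrast were filtered (filterByExpr, minimum count 10), scaled by TMM and compared by the quasi-likelihood test of edgeR, adjusting p by Benjamini-Hochberg over all genes tested. The SE is the absolute log2 fold change over the square root of the F statistic. CPM was scaled by TMM over 12 libraries. Positions and exon lengths came from GENCODE 29, which matched 19029 of 19447 symbols, and promoter sequences from RefSeq (GRCh38.p14). The steps were tested on simulated counts for K562/IM against K562, where 172 of 200 genes changed by 1.5 on the log2 scale were recovered, with 15 false calls among 13406 genes.

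The members, lists and tests were chosen with earlier results of these data known, and the lists were written from general knowledge. Genes named are the 7 members, the nearest gene on each side of each and the genes overlapping them, ABCB1 as a check of the label, the 5 genes most like JUN and 3 most like each other member, and in each list and contrast up to 2 genes in each direction with the largest change among those that passed and did not overlap. Marker genes come from 2 lists, of erythroid cells and of other cell types. Alternatives were DESeq2 1.42.0, other size factors and filters, a fit of 12 libraries, counts divided by 4, a threshold of 1 on the log2 scale, the replicate number as a block, and each library left out. Groups of 3 were not tested for outlying libraries, and no batch is given in the labels.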

Additional observations from a re-analysis of the deposited data

Results flagged for a closer look

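In 1 of the 7 members and 8 list genes, every K562+L library lay on one side of the K562 libraries. Every library labelled K562/IM+L lay on the opposite side of the K562/IM libraries. How many of all genes did so was not counted, so these genes are not shown to stand out. Of all genes tested, 37.3% passed in the K562 pair and 66.8% in the pair labelled K562/IM+L and K562/IM. The difference between the pairs was not tested, and it is given as the log2 fold change of the labelled pair minus that of the K562 pair. For FOSL2 it was -3.04, from 1.92 in K562+L against K562 and -1.10 in the labelled pair. Among the bZIP partners it was 3.83 for JDP2 (from -3.41 and 0.44), 7.30 for MAF (from -1.80 and 5.53) and 4.54 for BATF2 (from -0.87 and 3.69). MAF rested on 9 counts in all in K562/IM. Of the factors at the promoters, MEF2A had -1.21, MRTFA -0.91 and MEF2D -0.82. ITCH of the turnover list had -0.81, and the AP-1 target GSTP1 had 1.38. The summed erythroid markers moved in opposite directions as well, lower in K562+L than in K562 and higher in the libraries labelled K562/IM+L than in K562/IM. Of the 9 markers, 5 passed as lower and 0 as higher in the K562 pair, beside 19.0% and 18.2% of all genes. In the labelled pair 9 passed as higher, beside 33.2% of all genes. The means of TAL1 (72.7 to 99.4 CPM) and KLF1 (139 to 174 CPM) were higher in K562+L. The part of the markers in these values was not tested.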

How the results depend on the processing

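Of the members' 392 log2 fold changes under an alternative, 380 kept their direction. Of the 252 that belong to a tested member and contrast, 252 kept their side of the threshold and 240 kept both. In K562+L against K562, described without a test, the members past the threshold went from 4 to 5 with DESeq2 and to 3 with upper-quartile factors or a fit of 12 libraries. JUNB in the labelled K562/IM+L libraries against K562/IM, near 0, turned to 0.0059 with DESeq2, 0.0070 with DESeq2's size factors, 0.058 with upper-quartile factors and 0.0038 with counts divided by 4, and ran from -0.23 to 0.20 with a library left out, passing through 0.0025 and 0.015 without replicates 1 and 2 of K562/IM. FOSB in K562/IM against K562 ran from -0.44 to 0.21 with a library left out. Without replicate 1 of the labelled K562/IM+L libraries, FOS and FOSB turned to -0.31 and -0.12 against K562/IM and to -0.49 and -0.40 against K562. Their highest values with a library left out were 0.72 and 0.94 against K562/IM, and 0.55 and 0.84 against K562. The difference between the pairs then ran from -0.86 to 0.16 for FOS, from -0.75 to 0.28 for FOSB and from -3.22 to -2.96 for FOSL2. With upper-quartile factors it was -2.67 for FOSL1 and -2.91 for FOSL2. With a threshold of 1 on the log2 scale added, the members past it fell from 4 to 2 in K562+L against K562, from 3 to 2 in K562/IM against K562 and from 3 to 1 in the labelled K562/IM+L libraries against K562. The list genes fell to 8 of 22, 14 of 41, 19 of 49 and 19 of 32 in the order K562+L against K562, K562/IM against K562, and the labelled K562/IM+L libraries against K562/IM and against K562. With a library left out, members past the threshold ran from 3 to 6 in K562+L against K562, where all genes fell from 4821 to 2871 without K562 replicate 2, 2971 without K562+L replicate 1 and 3058 without K562+L replicate 3. They were 3 each time in the other contrasts. List genes ran from 19 to 30, 34 to 50, 43 to 54 and 27 to 33. By list, leaving out 1 library moved a count by over 1.5 times in K562+L against K562 (promoter factors from 2 to 4 without K562 replicate 1, turnover genes from 1 to 0 without K562 replicate 2 or K562+L replicate 3, and to 2 without K562 replicate 1). It did so for bZIP partners in K562/IM against K562 (from 7 to 4 without K562/IM replicate 1 or 3). Against K562/IM, the labelled K562/IM+L libraries went from 11 to 7 bZIP partners without K562/IM replicate 2 and from 8 to 5 promoter factors without K562/IM replicate 1. Against K562 they went from 8 to 5 genes of the JNK module without replicate 1 or 2 of either group. JUND's share in K562 was 49.1% by the length of the longest transcript. That length equals the exon length for the JUN genes and is shorter for the FOS genes. It is 2158 against 3238 bases for FOS and 3775 against 5553 bases for FOSB. By it the FOS genes together hold larger shares in every group, and their order against other members can change. Those values are not given here.

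Replicate numbers did not pair the libraries: the correlation of deviations between libraries of 1 number ran from -0.57 to 0.14 over the contrasts. Between libraries of different numbers it ran from -0.44 to 0.56, so some libraries of different groups deviated alike. What they share is not given in the labels and was not tested. With the replicate number as a block, 3 members were past the threshold in each contrast, against 4 in K562+L against K562 without it, where all genes fell from 4821 to 3126. List genes were 19, 41, 50 and 26, and the difference between the pairs was -2.78 for JUN, -0.29 for FOS and -0.29 for FOSB.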
